A study of Homo sapiens with 6 samples.

Results

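LIN28A, LIN28B, TRIM71, HMGA1, HMGA2, IGF2BP1, IGF2BP2 and IGF2BP3 were followed in human embryonic stem cells depleted of DDX18, a nucleolar RNA helicase of the DEAD-box class. The genes were taken by symbol from the deposited expression table, and all 8 had a row among its 17929 genes. They form the circuit of LIN28 and the let-7 microRNAs with TRIM71. H9 and HES2, both established lines, were cultured over irradiated mouse fibroblasts that no longer divide, infected with virus and harvested at day 4. In each line 1 library carried the luciferase hairpin shLuc, 1 the hairpin shDDX18#1 and 1 the hairpin shDDX18#3, so that every arm had n = 2 and the knockdown libraries together n = 4. All groups, controls included, had been infected. Separate cultures are not recorded in the labels, and p-values therefore describe only the spread among these 6 libraries. Levels are in CPM, the authors' reads per 1e+06 of an effective library size, and fold changes are differences of log2(CPM + 1).

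LIN28A and LIN28B are RNA-binding proteins that hold back the maturation of let-7 microRNAs, which in turn repress messenger RNAs carrying a match to the let-7 seed. Transcripts for the chromatin proteins HMGA1 and HMGA2, for the messenger RNA-binding proteins IGF2BP1, IGF2BP2 and IGF2BP3, and for LIN28B itself are textbook targets. TRIM71 (LIN41), a ubiquitin ligase and messenger RNA repressor of early embryos, was among the first let-7 targets found in worms. In pluripotent cells LIN28 is abundant and mature let-7 scarce, and the balance turns over when cells differentiate. Mature microRNAs were not measured here.

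The let-7 sequences are shown because they define what the 8 genes share. The RefSeq table on GRCh38.p14 held 9 mature let-7 family members, and all 9 have the seed GAGGUAG at bases 2 to 8, given in capitals.
let-7a-5p: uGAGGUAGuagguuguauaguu
let-7b-5p: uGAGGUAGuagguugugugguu
let-7c-5p: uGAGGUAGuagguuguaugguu
let-7d-5p: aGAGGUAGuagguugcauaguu
let-7e-5p: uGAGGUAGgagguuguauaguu
let-7f-5p: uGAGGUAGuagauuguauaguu
let-7g-5p: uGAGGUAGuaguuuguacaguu
let-7i-5p: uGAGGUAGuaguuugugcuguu
miR-98-5p: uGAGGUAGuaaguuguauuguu

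The letters CTACCTC, which pair with that seed, were searched on the sense strand of 1 annotated 3′ UTR per gene (GENCODE 29, GRCh38, the principal transcript). Matches are a description of the annotation and not evidence of binding in these cells. All 8 genes had at least 1 match, against 8.6% of 19140 genes with a 3′ UTR. TRIM71 had 6 matches in 6015 bases, and LIN28B (4549 bases), HMGA2 (3003 bases) and IGF2BP1 (6206 bases) had 4 each. Among genes whose 3′ UTR was within 20% of the same length, at least as many matches were found in 0.13% for TRIM71, 0.24% for LIN28B, 0.11% for HMGA2 and 0.58% for IGF2BP1. LIN28A, HMGA1, IGF2BP2 and IGF2BP3 had 1 match each, and among 3′ UTRs of similar length 16.3%, 8.2%, 11.1% and 12.0% held a match. The genes are known let-7 targets, so a high share of matches follows from how they were chosen. The match nearest the stop codon in each gene is printed below, with the seed match and a following A, where there is one, in capitals.
LIN28A: tgcacagcctattgaaCTACCTCA
LIN28B: tacccggttgcaaagtCTACCTCA
TRIM71: caacattgcttaagtcCTACCTCA
HMGA1: tttcctctgttcacaaaCTACCTC
HMGA2: cgccaacgttcgatttCTACCTCA
IGF2BP1: ctgtgtgcgaagtaaaCTACCTCA
IGF2BP2: aaacacacagaagaagCTACCTCA
IGF2BP3: gtgcatttttactcaaCTACCTCA
Each of these lies in the 3′ UTR, in the last exon. Those of LIN28A, TRIM71 and HMGA2 are placed with their genes below. The 7-base match is at chr6:105078827-105078833 in LIN28B, at chr6:34245844-34245850 in HMGA1 and at chr17:49051076-49051082 in IGF2BP1, all on the forward strand. In IGF2BP2 it is at chr3:185644221-185644227 and in IGF2BP3 at chr7:23311796-23311802, both on the reverse strand.

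**Figure D1:**
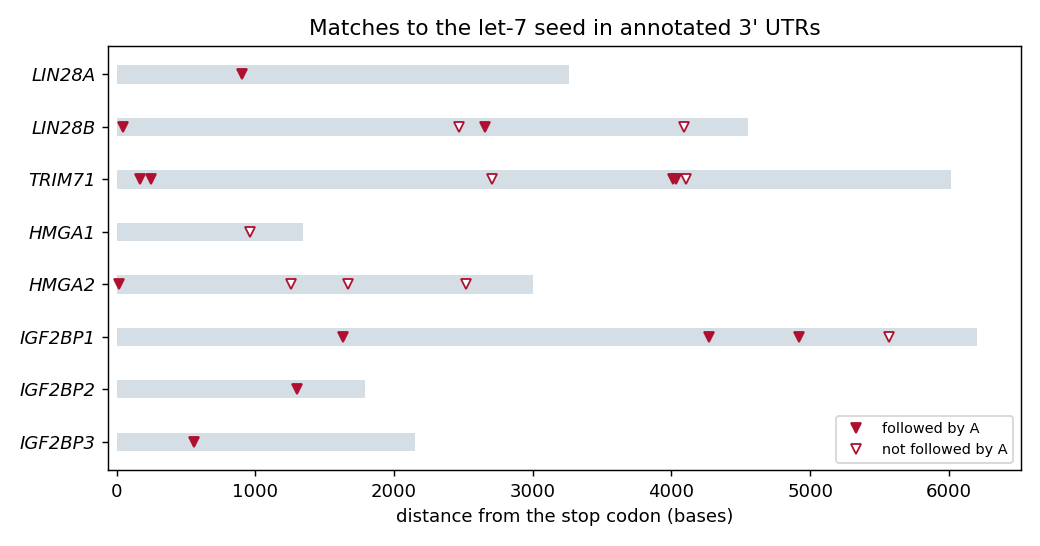
Each grey bar is the annotated 3′ UTR of a gene, with distance from the stop codon in bases on the x axis, and triangles mark the let-7 seed matches (filled where an A follows, open where not). TRIM71 holds 6 matches, LIN28B, HMGA2 and IGF2BP1 hold 4 each, and the other genes 1 each.

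DDX18 stood at 153 and 161 CPM in the shLuc libraries of H9 and HES2 and between 19.2 and 60.4 CPM in the 4 knockdown libraries, lower with shDDX18#1 than with shDDX18#3 in both lines. Recovered totals ran from 2668179 to 4271741 reads, with 1 read worth 0.224 to 0.408 CPM, and the 8 genes held between 96 reads (LIN28B in H9 shDDX18#1) and 12822 (HMGA1 in HES2 shLuc). Of 12 stem cell markers 9 fell and 0 rose, and of 15 fibroblast and feeder markers 10 rose and 0 fell (limma). Among all genes tested 6.26% fell and 9.6% rose. The stem cell markers summed to 6963 and 5876 CPM in shLuc of H9 and HES2 and 3854 to 4861 CPM in the knockdown libraries. PODXL, the only 1 of the 12 that was higher, held a large part of these sums. It was at 2143 CPM in H9 shLuc, 2502 in shDDX18#1 and 2757 in shDDX18#3, and at 1237, 2930 and 2128 in HES2. The sums therefore understate the fall of the other stem cell markers. The summed level of the fibroblast markers went from 2588 CPM in H9 shLuc to 40960 and 15020 with shDDX18#1 and shDDX18#3. In HES2 it went from 894 to 4925 and 4114, with DCN at 0 in shLuc and shDDX18#3 and FAP at 0 in the same libraries. Of 11 endoderm markers 8 rose and 0 fell, and their sum lay at 165 to 200.4 CPM in shLuc and 452 to 1115 in the knockdown libraries. Of 6 neural markers 1 rose and 0 fell, too few to set against the share of all genes. In such bulk RNA, fewer cells of a kind and less of the transcript per cell cannot be told apart. The part of these marker changes in the values below was not tested.

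In the knockdown libraries LIN28B and TRIM71 fell to less than 50% of the control on the fitted scale, and HMGA2 rose 2.08-fold. HMGA1, IGF2BP1, IGF2BP3 and LIN28A were lower, and IGF2BP2 higher, without passing the test over both hairpins. Of the 8 genes 2 fell and 1 rose (limma adjusted p under 0.05), where 6.26% of all 17768 genes tested fell, 9.6% rose and 15.9% did either. The median log2 fold change was -0.59 over the 8 genes and -0.02 over all genes tested, and 6 of 8 were lower against 9123 of 17768. Each of those 6 was below both shLuc libraries in all 4 knockdown libraries, which 20.9% of all genes were. HMGA2 alone among the 8 was above both shLuc libraries in all 4, against 19.8% of all genes. All 8 genes passed the filter on low values.

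**Figure D2:**
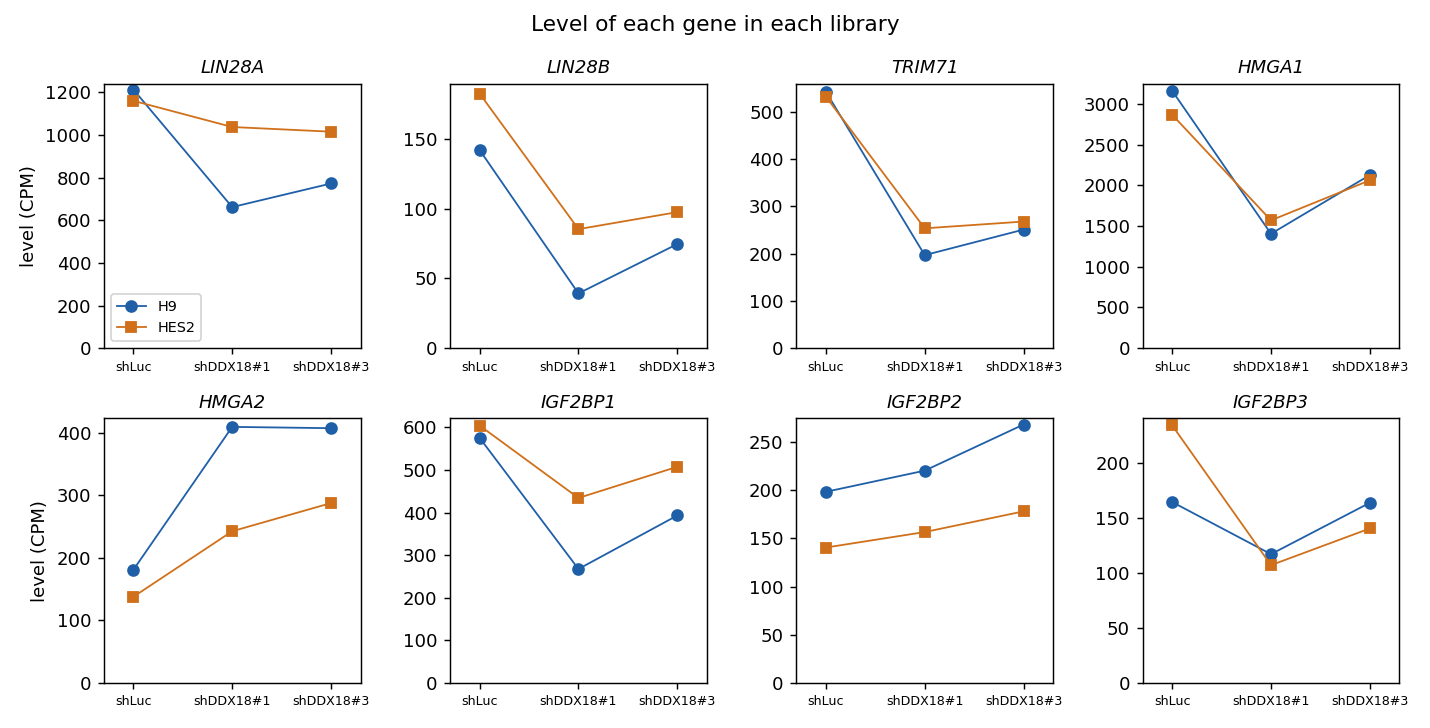
Each panel plots the level of a gene (y axis, CPM, starting at 0) in the shLuc, shDDX18#1 and shDDX18#3 libraries (x axis), with circles for H9 and squares for HES2, 1 library per point. LIN28B and TRIM71 drop with both hairpins in both lines, HMGA2 rises in both, and the LIN28A points lie further below their control in H9 (54.5% and 63.7%) than in HES2 (89.3% and 87.5%).

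LIN28A (ENSG00000131914, chr1:26410778-26429722 on GRCh38) was at 1214 CPM in the H9 control and at 662 (shDDX18#1) and 773 (shDDX18#3) after knockdown. For HES2 the control stood at 1161, and the hairpins at 1038 and 1016. The groups did not overlap, but H9 retained 54.5% and 63.7% of its control level and HES2 retained 89.3% and 87.5%. Over both lines LIN28A went from 1188 ± 37.0 CPM (SD, n = 2) to 872 ± 184 (n = 4), a log2 difference of -0.47 (SE 0.19) that did not pass (limma adjusted p = 0.12). The 95% interval of that change ran from -0.90 to -0.04, and the change itself from -0.76 to -0.18 over the alternatives. The difference between the lines' responses was 0.58 on the log2 scale (SE 0.34, interval -0.23 to 1.39, limma adjusted p = 0.9998). This gap between H9 and HES2 did not pass, and its wide interval does not settle whether the lines differ in response. The let-7 match printed above lies at chr1:26427363-26427369, in the 3′ UTR in exon 4 of 4.

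LIN28B (ENSG00000187772, chr6:104936616-105083332), the paralogue that carries 4 let-7 matches, was at 142 CPM in H9 shLuc, 39.2 in shDDX18#1 and 74.6 in shDDX18#3. In HES2 it was at 182, 85.3 and 97.5. Every knockdown library was below both controls, and the lowest was H9 shDDX18#1 at 27.6% of its own shLuc, against 46.7% to 53.4% in the other 3. With means of 162 ± 28.6 CPM (n = 2) and 74.1 ± 25.1 (n = 4), LIN28B fell by 1.18 on the log2 scale, SE 0.25 (limma adjusted p = 0.0196, lower in 4 of 4 libraries). The call was lost without H9 shLuc (-0.99, adjusted p = 0.21), without HES2 shLuc (-1.38, 0.117) and without HES2 shDDX18#1 (-1.17, 0.0558). It was also lost with no trend (adjusted p = 0.0657) and with no cell line block (0.0705). Its antisense neighbour LIN28B-AS1 held 0.835 to 2.46 CPM, and the kit keeps no strand. The ratio of LIN28B to LIN28A CPM, with no correction for length and so read only across libraries, was 11.7% in H9 shLuc against 5.92% and 9.65% after knockdown. The HES2 ratios were 15.7%, 8.22% and 9.59%, again lower in every knockdown library than in its own control.

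TRIM71 (ENSG00000206557, chr3:32818018-32897826) had the closest pair of controls, 543 CPM in H9 and 532 in HES2. With shDDX18#1 it was at 197 CPM (H9) and 254 (HES2), and with shDDX18#3 at 251 and 268. The 4 knockdown libraries lay within 36.3% to 50.3% of their own shLuc. Means of 537 ± 7.32 (n = 2) and 242 ± 31.2 (n = 4) gave a fall of TRIM71 by 1.16 in log2 units, SE 0.16 (limma adjusted p = 0.00453, lower in 4 of 4). Without H9 shLuc the change was -1.03 (adjusted p = 0.0707) and without HES2 shLuc -1.28 (0.0566), each then an estimate from a single line. It passed in the other 16 of 18 alternatives. The authors' deposited table gives -1.15 for TRIM71 and -1.15 for LIN28B, with false discovery rates of 2.01e-06 and 4.94e-05. At a rate under 0.05 that table calls 3 of the 8 genes lower and 1 higher, against 9.42% and 13.5% of all its genes. Of the 6 let-7 matches in TRIM71, the first begins 172 bases into the 3′ UTR at chr3:32891983-32891989, in exon 4 of 4.

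HMGA1 (ENSG00000137309, chr6:34236873-34246231) and HMGA2 (ENSG00000149948, chr12:65824131-65966295) encode sister proteins that bind AT-rich DNA, and their transcripts went in opposite directions. HMGA1 was at 3160 CPM in H9 shLuc, 1404 in shDDX18#1 and 2125 in shDDX18#3, and at 2866, 1569 and 2061 in HES2. It was lower in 4 of 4 knockdown libraries, most with shDDX18#1 (44.4% and 54.7% of the control), less with shDDX18#3 (67.3% and 71.9%). From 3013 ± 208 (n = 2) to 1790 ± 357 (n = 4), the log2 fold change of -0.77 (SE 0.23) did not pass (limma adjusted p = 0.0591). It passed with edgeR (-0.75, adjusted p = 0.0484), with DESeq2 (-0.73, 0.0124), with a robust prior (0.0416) and without H9 shDDX18#3 (-0.89, 0.0375). The authors' deposited table lists HMGA1 at -0.75 with a false discovery rate of 0.016. HMGA1 has processed copies elsewhere in the genome. The 3 of them with a row here, HMGA1P2, HMGA1P3 and HMGA1P8, held at most 11.8 CPM, so that little of its signal was assigned to them, while reads lost between copies cannot be counted.

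HMGA2 was at 181 CPM in H9 shLuc and rose to 410 and 407 with shDDX18#1 and shDDX18#3, and in HES2 it rose from 138 to 243 and 288. All knockdown libraries were above both controls, at 176% to 227% of their own shLuc. HMGA2 averaged 159 ± 30.5 (n = 2) and 337 ± 84.8 (n = 4) in the 2 groups and rose by 1.05 on the log2 scale, SE 0.14 (limma adjusted p = 0.00467, higher in 4 of 4). Without H9 shLuc it stood at 0.93 (adjusted p = 0.074) and without HES2 shLuc at 1.17 (0.0581), and it passed in the other 16 of 18 alternatives. The ratio of HMGA2 to HMGA1 CPM, again read only across libraries, came to 5.72% in H9 shLuc and to 29.2% and 19.2% after knockdown, and in HES2 to 4.80%, 15.5% and 14.0%. The first of its 4 let-7 matches begins at base 21 of the 3′ UTR (chr12:65963313-65963319, exon 5 of 5).

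IGF2BP1, IGF2BP2 and IGF2BP3 bind messenger RNAs and affect their stability and translation. IGF2BP1 (ENSG00000159217, chr17:48997412-49055650) was at 576 CPM in H9 shLuc, 267 in shDDX18#1 and 393 in shDDX18#3, and at 604.5, 434 and 508 in HES2. All 4 knockdown libraries were below both controls, but the change from 590.0 ± 20.4 (n = 2) to 401 ± 101 (n = 4), -0.59 with SE 0.20, did not pass (limma adjusted p = 0.0795), and ran from -0.83 to -0.36 over the alternatives. IGF2BP3 (ENSG00000136231, chr7:23310209-23470467) was at 165, 117 and 164 CPM in H9 and 235, 107 and 141 in HES2. H9 shDDX18#3 was at 99.6% of its control, and the other 3 knockdown libraries were at 45.7% to 71.2%. The IGF2BP3 change of -0.59 (SE 0.22) did not pass (limma adjusted p = 0.102), except without H9 shDDX18#3 (-0.74, adjusted p = 0.0302). It was -0.93 without H9 shLuc (adjusted p = 0.146) and -0.25 without HES2 shLuc (0.639). Exons of IGF2BP3 overlap those of MALSU1 on the other strand, which held up to 103 CPM, so that how their reads divide is uncertain.

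IGF2BP2 (ENSG00000073792, chr3:185643739-185825056) was the only family member above its own control in 4 of 4 knockdown libraries, which held for 25.8% of all genes. It was at 199 CPM in H9 shLuc, 221 in shDDX18#1 and 268 in shDDX18#3, and at 141, 157 and 178 in HES2. The groups overlapped, since the HES2 knockdown libraries were below H9 shLuc. The change of 0.27 with SE 0.14 did not pass (limma adjusted p = 0.232, interval -0.06 to 0.60). Together the 3 IGF2BP genes held 939 CPM in H9 shLuc and 980 in HES2 shLuc, and 605 to 827 in the knockdown libraries. IGF2BP2 made up 21.1% of that sum in H9 shLuc and 36.4% and 32.5% with shDDX18#1 and shDDX18#3, and in HES2 14.4%, 22.4% and 21.6%.

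**Figure D3:**
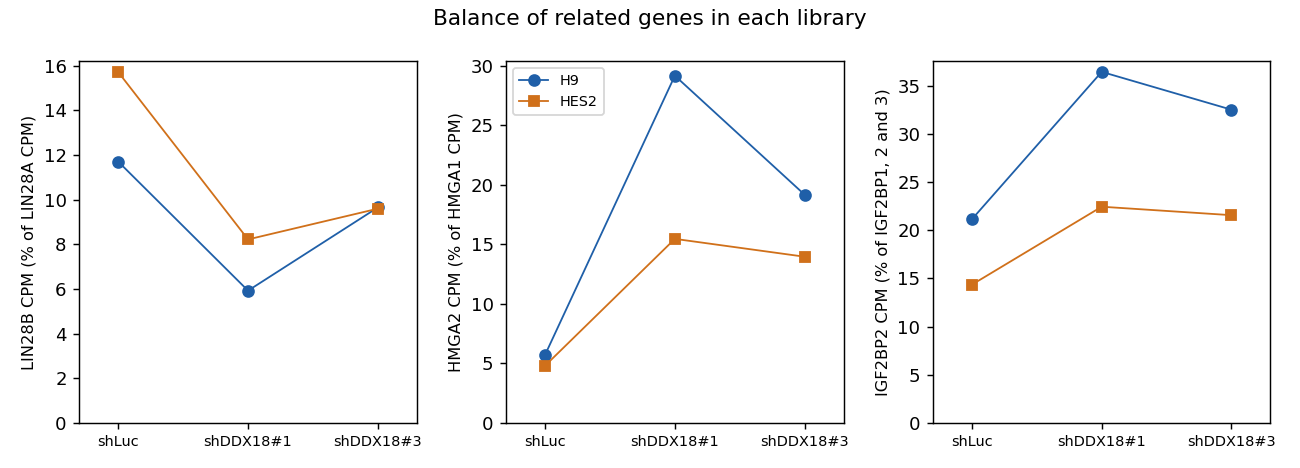
Panels show LIN28B as a percentage of LIN28A, HMGA2 as a percentage of HMGA1, and IGF2BP2 as a percentage of the 3 IGF2BP genes (y axes, from CPM, starting at 0) in each library, with H9 as circles and HES2 as squares. The ratio of LIN28B to LIN28A is lower, and the ratio of HMGA2 to HMGA1 and the IGF2BP2 share are higher, in every knockdown library than in the shLuc library of its line.

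Levels of different genes can be compared only per length, in CPM per kilobase of the principal transcript. In shLuc HMGA1 was highest at 1570 ± 108 and LIN28A next at 296 ± 9.35 (SD, n = 2), followed by IGF2BP1 at 71.3 ± 2.47 and TRIM71 at 61.9 ± 0.839. IGF2BP3 (47.0 ± 11.6), IGF2BP2 (46.0 ± 11.1), HMGA2 (35.6 ± 6.81) and LIN28B (29.5 ± 5.19) came last. These SDs are over the 2 lines, and the order in this group differed between them. IGF2BP3 was below IGF2BP2 in H9 (38.8 against 53.8) and above it in HES2 (55.2 against 38.1). HMGA2 was above LIN28B in H9 (40.4 against 25.8) and below it in HES2 (30.8 against 33.1). IGF2BP2 was above HMGA2 in both lines. In the knockdown libraries (n = 4) HMGA1 (932 ± 186) and LIN28A (218 ± 46.1) still came first, and HMGA2 came next at 75.3 ± 19. HMGA2 and IGF2BP2 (55.8 ± 13.4) overlapped in SD, but HMGA2 was the higher in every knockdown library. With shDDX18#1 and shDDX18#3 it was at 91.6 and 91.1 against 59.8 and 72.8 in H9. In HES2 it was at 54.2 and 64.3 against 42.5 and 48.3. IGF2BP2 was above IGF2BP1 (48.4 ± 12.2) in H9, where IGF2BP1 was at 32.3 and 47.5, and below it in HES2 (52.5 and 61.3). IGF2BP3 (31.1 ± 5.97) did not differ from TRIM71 (27.9 ± 3.6) beyond their spread, and LIN28B was last at 13.5 ± 4.56. The places of HMGA2 and IGF2BP3 depend on the length used, since their annotated exons together span 15403 and 8511 bases and their principal transcripts 4473 and 4250. Per kilobase of all exons HMGA2 was at 10.3 ± 1.98 in shLuc, the lowest of the 8, and at 21.9 ± 5.51 in the knockdown libraries. On that scale IGF2BP3 was at 23.5 ± 5.8 in shLuc and LIN28B at 27.0 ± 4.76. The SDs overlapped, but IGF2BP3 was the lower in each line (19.4 against 23.7 in H9, 27.6 against 30.4 in HES2). In the knockdown libraries it was at 15.5 ± 2.98, below TRIM71 beyond the spread, and LIN28B stayed last at 12.3 ± 4.18.

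By hairpin, shDDX18#1 left less DDX18 and gave the larger number of calls. With shDDX18#1, 5 of the 8 genes fell and 1 rose (limma adjusted p under 0.05), where 13.4% of all genes fell and 14.4% rose, 27.8% together. LIN28B fell by 1.46 (adjusted p = 0.00151), TRIM71 by 1.26 (0.000672), HMGA1 by 1.02 (0.00252), IGF2BP3 by 0.81 (0.0151) and IGF2BP1 by 0.79 (0.00976) on the log2 scale, and HMGA2 rose by 0.99 (0.00175). Without H9 shDDX18#1, HMGA1 (-0.89, adjusted p = 0.0525) and IGF2BP1 (-0.55, 0.102) did not pass. IGF2BP3 did not pass without HES2 shLuc (-0.46, 0.0698) or without HES2 shDDX18#1 (-0.67, 0.0959). With shDDX18#3, LIN28B fell by 0.91 (adjusted p = 0.026) and TRIM71 by 1.05 (0.00386), and HMGA2 rose by 1.11 (0.00303), where 3.69% of all genes fell and 6.96% rose, 10.6% together. These 3 calls were lost when either shDDX18#3 library was left out, and LIN28B's also without H9 shLuc (-0.72, 0.0623). Without HES2 shLuc, 6 genes were called with shDDX18#3. The hairpins share the same shLuc libraries.

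The direct comparison of shDDX18#3 with shDDX18#1 called 0 of the 8 genes and 0% of all genes tested (limma), while 4 of the 8 and 2536 of all genes had an unadjusted p under 0.05. On the recovered reads edgeR and DESeq2 called 0 of the 8, and 31 and 115 of all genes. The 4 were HMGA1 (0.50, interval 0.13 to 0.86, adjusted p = 0.222), LIN28B (0.55, interval 0.09 to 1.01, 0.27), IGF2BP1 (0.39, interval 0.01 to 0.77, 0.343) and IGF2BP3 (0.44, interval 0.00 to 0.87, 0.347). Each of the 4 was higher with shDDX18#3, the hairpin that left more DDX18. In both lines 6 of 8 genes were higher with shDDX18#3, against 33.6% of all genes. The exceptions were LIN28A, which was lower with shDDX18#3 in HES2, and HMGA2, which was lower with it in H9. TRIM71 differed by 0.21 between the hairpins (interval -0.11 to 0.54) and HMGA2 by 0.12 (interval -0.21 to 0.44).

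**Figure D4:**
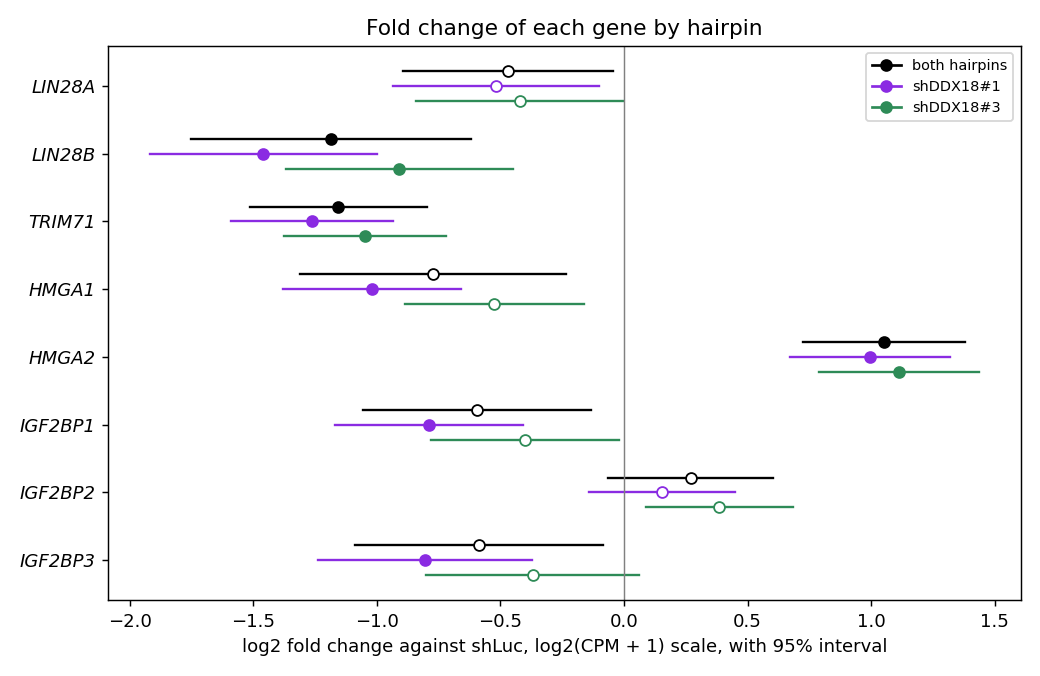
Points are log2 fold changes against shLuc on the log2(CPM + 1) scale (x axis) for each gene, over both hairpins (black) and for each hairpin, lines are 95% intervals from limma, and filled points have an adjusted p under 0.05. LIN28B, TRIM71 and HMGA2 are filled in all 3 fits, while HMGA1, IGF2BP1 and IGF2BP3 are filled for shDDX18#1 alone.

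For the lines, the question was whether the response differed and whether HES2 and H9 differed in level. In the interaction fit 0 of 8 genes and 0% of all genes were called (limma), 0 of the 8 and 788 of all genes had an unadjusted p under 0.05, and edgeR and DESeq2 called 0 of the 8 (0 and 13 of all genes). The largest differences in response were IGF2BP3 (-0.68, interval -1.62 to 0.26) and LIN28A (0.58), and such intervals leave room for differences of more than 2-fold. Between the lines, with the arm as a block, HMGA2 was lower in HES2 by 0.55 on the log2 scale (adjusted p = 0.0328) and IGF2BP2 by 0.52 (0.0274), where 3.98% of all genes were lower and 1.44% higher, 5.42% together. None of the 8 genes was higher in all HES2 libraries than in all H9 libraries, as 7.78% of all genes were. All HES2 libraries were below all H9 libraries for IGF2BP2 (158 ± 18.9 against 229 ± 35.7 CPM, n = 3 each), as for 6.56% of all genes, and for HMGA2 the lines overlapped (223 ± 76.9 against 333 ± 132). Scaled by library totals in place of the authors' factors, the median of all genes moved to 0.15, the share of called genes that were higher in HES2 from 26.5% to 45.5%, and neither gene passed (-0.42 with adjusted p = 0.0769 and -0.39 with 0.0863). In that scaling LIN28B was called higher in HES2 (0.74, adjusted p = 0.0428), against 0.61 and 0.0713 with the authors' factors. The LIN28B difference was also 0.74 when 1 shLuc library, of either line, was left out. In those fits LIN28A was higher in HES2 by 0.52 and IGF2BP1 by 0.53, against 0.33 and 0.38 with all libraries. Neither the HMGA2 nor the IGF2BP2 call held when any 1 knockdown library was left out, with adjusted p from 0.0858 to 0.355.

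Of 26 other genes described as let-7 targets, 4 rose and 3 fell, and 19 did neither, where 9.6% of all genes rose and 6.26% fell. Their median log2 fold change was 0.06, against -0.02 for all genes. Higher were CDK6, a kinase of the G1 phase, from 38.9 ± 7.97 to 129 ± 39.4 CPM (1.67, limma adjusted p = 0.00337), the matrix glycoprotein THBS1 (2.40), the TGF-beta receptor TGFBR1 (1.10) and the GTPase HRAS (0.91). MYCN and MYC, transcription factors of growth, fell by 1.74 and 1.11, and CDC25A, a phosphatase that activates cyclin-dependent kinases, by 1.50. The calls of CDC25A and HRAS were lost in limma with no trend (adjusted p = 0.0599 and 0.054) and without HES2 shDDX18#1. That of THBS1 was lost with no cell line block (limma adjusted p = 0.0597). NR6A1 (-0.64, adjusted p = 0.0772) and the neural cell surface protein PRTG (1.76, 0.0558) did not pass, though PRTG did without H9 shLuc (2.94, 0.0338) or H9 shDDX18#1 (2.21, 0.00802). PRTG was at 71.7 CPM in H9 shLuc, 67.0 in shDDX18#1 and 171 in shDDX18#3, and at 46.7, 331 and 405 in HES2. By the same search 16 of these 26 genes held a let-7 match, among them PRTG with 2, NR6A1 with 5, CDC25A with 2 and TGFBR1 with 1, but not CDK6, THBS1, HRAS, MYC or MYCN.

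In the machinery that makes and turns over microRNAs 1 of 25 genes rose and 4 fell, where 9.6% of all genes rose and 6.26% fell, with a median of -0.23 against -0.02 for all genes. ZSWIM8, a ubiquitin ligase adaptor in target-directed microRNA decay, rose from 41.5 ± 0.474 to 105 ± 5.198 CPM (1.32, limma adjusted p = 0.00241), with every knockdown library at 99.5 CPM or more and both controls under 42. AGO2, the slicing Argonaute, fell from 279 ± 33.0 to 148 ± 20.5 (-0.91, adjusted p = 0.00751), and XPO5, the exporter of precursor microRNAs, from 207 ± 11.5 to 113 ± 15.8 (-0.88, 0.0152). HNRNPA1 (-1.12), whose reads may be shared with processed copies, and SYNCRIP (-0.53), both RNA-binding proteins, fell as well. The HNRNPA1 call was lost in limma with no trend (adjusted p = 0.068) and with no cell line block (0.0566). That of XPO5 was lost with no trend (limma adjusted p = 0.0599). Both were also lost without HES2 shDDX18#1. SYNCRIP lost its call in 8 alternatives, among them scaling by library total (adjusted p = 0.0513). AGO1 (-0.61, adjusted p = 0.0527, but 0.029 without H9 shDDX18#3) and the neural RNA-binding protein MSI1 (-0.58, 0.0715) did not pass. DICER1, which cuts precursors, was at 127 and 138 CPM in shLuc and 132 to 150.1 in the knockdown libraries (0.09, adjusted p = 0.67). The terminal uridyltransferases that act with LIN28 on precursor let-7, TUT4 (0.44, 0.0984) and TUT7 (0.44, 0.139), did not pass, nor did DIS3L2, the exonuclease that degrades the tailed precursor (-0.24, 0.438).

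Of 23 names listed as let-7 genes or their hosts, 6 had a row, of which 1 rose and 0 fell. Among all genes 9.6% rose and 6.26% fell, and 6 genes are too few to set against these shares. The 1 that rose was MIR100HG, a host of let-7a (limma adjusted p = 0.0417). MIR100HG was at 0.277 CPM in H9 shLuc, 24.9 in shDDX18#1 and 8.75 in shDDX18#3, and at 0.447, 5.47 and 1.11 in HES2. The log2 fold change of 2.50 became 1.41 with a pseudocount of 4 CPM, and the call was lost (limma adjusted p = 0.0751). It was also lost in limma with no trend (adjusted p = 0.0856) and with no cell line block (0.104). Both controls were under the floor of 3 reads, and without H9 shDDX18#1 the gene did not pass (adjusted p = 0.0523), nor without H9 shLuc (0.416), HES2 shLuc (0.0881) or HES2 shDDX18#1 (0.103). HUWE1, host of further let-7 family genes on the X chromosome, was at 522 to 629 CPM in shLuc and 442 to 614 in the knockdown libraries. WDR82, whose locus holds let-7g, did not pass (-0.23, limma adjusted p = 0.338). TMPO-AS1, also among the 6, hosts no let-7 gene and was listed in error, and at -0.84 it missed the threshold in limma (adjusted p = 0.0514) and passed with edgeR (0.0474) and DESeq2 (0.0354). Host transcripts do not show the level of mature let-7.

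Among 9 genes reported as repressed by TRIM71, 3 rose and 0 fell, where 9.6% of all genes rose and 6.26% fell, with a median of 0.73 against -0.02. PLXNB2, a semaphorin receptor, rose from 103 ± 23.4 to 350.1 ± 74.4 CPM (1.75, limma adjusted p = 0.00214), CDKN1A, an inhibitor of cyclin-dependent kinases and also a p53 target, by 3.08, and the splicing factor MBNL1 by 1.23 (0.0376). The MBNL1 call was lost when H9 shLuc (0.73, adjusted p = 0.379), HES2 shLuc (1.74, 0.0934) or HES2 shDDX18#1 (1.21, 0.093) was left out, with no trend (0.0871) and with no block (0.165). The cell cycle repressors E2F7 (0.48, adjusted p = 0.0854) and RBL1 (-0.82, 0.0758) did not pass. Of 6 transcripts known to be bound by IGF2BP proteins 2 rose and 1, MYC, fell, beside the same shares of all genes. CD44, a hyaluronan receptor, rose by 1.91 and the growth factor IGF2 by 3.00 (1.903 without HES2 shLuc). Both calls were lost in limma with no cell line block (adjusted p = 0.191 and 0.0766). IGF2 was at 36.0 CPM in H9 shLuc and 115 and 164 with shDDX18#1 and shDDX18#3, and in HES2 at 55.7, 974 and 959. H19, the imprinted RNA beside IGF2, was at 131, 518 and 526 CPM in H9 and at no more than 0.322 in HES2, and did not pass (0.95, adjusted p = 0.156). On the recovered reads H19 passed with edgeR (1.94, adjusted p = 0.00818) and DESeq2 (1.94, 5.42e-06), as it did in limma without HES2 shLuc (1.99, 0.0393), while without H9 shLuc it was at -0.09 (0.918). BTRC, a ubiquitin ligase subunit, did not pass either (0.21, adjusted p = 0.46). Of 19 called genes named outside the 8, DDX18 included, 8 passed without H9 shLuc and 4 (THBS1, ZSWIM8, PLXNB2 and IGF2) without HES2 shLuc, and DDX18 passed in neither.

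Among 10484 genes with a symbol and a mean of at least 10 CPM, likeness to 5 of the 8 was measured over the 6 libraries, which share lines and depth. By Pearson correlation of log2(CPM + 1), the genes most like LIN28A were CTCF (r = 0.99), ARFGAP2 and FNBP4, and 5 genes exceeded 0.99. For LIN28B they were OARD1, TKFC and STK36, with 38 over 0.99, and for TRIM71 they included CHSY1 and MCM8, with 23. CHSY1 (-0.58) and MCM8 (-0.55) both fell (limma). HMGA2 was most like KCNF1, ILK and MSRB3, with 12 over 0.99, and all 3 rose (1.70, 0.47 and 2.24). IGF2BP1 was most like TIA1, PRR12 and CHAMP1, with 17 over 0.99. None of the 3 genes most like LIN28A, LIN28B or IGF2BP1 was called in the knockdown comparison (limma). These r values describe 6 libraries and carry no test. The same 6 libraries make up the knockdown comparison, so the directions of these genes follow from how they were picked.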

How the data were processed

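The authors deposited 1 table with a normalized signal for each of 6 libraries, and with its own test results: log2 fold change, mean log2 abundance, likelihood ratio score, p-value and false discovery rate. Per the submitters' processing notes, the tools were edgeR 3.26.8, HTSeq 0.11.2, Bowtie2 2.3.4.3 and SAMtools 1.9, on hg19, and the role of each is not given in the sources used here. 100% of the deposited signal values came out as whole reads within 0.001 once divided by the worth of 1 read. On those reads edgeR called 2906 genes and DESeq2 2848 in the knockdown comparison, against 2819 with limma. Library totals ranged from 2668179 to 4271741 reads, and floors of 3 reads cover counting error only.

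The 17768 genes reaching 1 CPM in 2 or more libraries were fitted on log2(CPM + 1) in limma 3.58.1 (R 4.3.3), with a mean-variance trend, Benjamini-Hochberg adjustment over all genes and cell line as a block. The block is the cell line, since each line gave 1 library to every arm. Deviations of the H9 libraries from their arm means correlated at 0.363 between shLuc and shDDX18#1 and at 0.454 between shLuc and shDDX18#3. Between the hairpins they correlated at 0.654. With 1 library per line in each arm, these values reflect differences between the lines and do not show a pairing of cultures. All libraries share 1 estimate of spread. Alternatives were other pseudocounts, filters, scalings and priors, no block, edgeR 4.0.16, DESeq2 1.42.0 and leaving out each library. The scripts were tested on simulated data. The 8 genes and the lists were chosen with earlier results of these data known. The rule named the 8 genes, DDX18, up to 4 called genes per direction and 2 others of each list by smallest p, and the 3 genes most correlated with each of LIN28A, LIN28B, TRIM71, HMGA2 and IGF2BP1, of which 1 is not reported here. TUT4, TUT7, DIS3L2, DICER1, HUWE1, HMGA1P2 and HMGA1P8 were added after their values were seen. Sequences and gene positions are on GRCh38, the build of the reference and not of the authors' counts.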

Additional observations from a re-analysis of the deposited data

How the results depend on the processing

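Each arm has 1 library per line, and once a library is dropped the lone library of its arm is assumed to vary like the others. In the knockdown comparison 3 of the 8 genes were called, and leaving out 1 library gave from 0 to 5: 0 without H9 shLuc or HES2 shLuc and 5 without H9 shDDX18#3. In all 18 alternatives the 8 genes kept their direction in that comparison, and LIN28B was called in 13, TRIM71 and HMGA2 in 16 each, HMGA1 in 4, IGF2BP3 in 1 and the other 3 in 0. Leaving out 1 library gave 4 to 6 calls with shDDX18#1 (6 with all libraries), 0 to 6 with shDDX18#3 (3), 0 to 1 between the hairpins (0) and 0 to 5 between the lines (2). The call between the hairpins was HMGA1, higher with shDDX18#3, without H9 shLuc (adjusted p = 0.0334) or HES2 shLuc (0.0382). Without the replicate block 2 genes were called for knockdown, 3 for shDDX18#1, 0 for shDDX18#3 and 0 between the lines. With no trend in the prior, 0 were called for shDDX18#3 and 0 between the lines. Between the lines, scaling by library total gave 1 call, LIN28B, in place of HMGA2 and IGF2BP2, and quantile normalization gave 1, IGF2BP2. The cause was not tested. Over all genes, knockdown calls went from 2819 to 1199 without the block, 1228 with no trend, 485 without H9 shLuc, 192 without HES2 shLuc, 1014 without HES2 shDDX18#1 and 1552 without HES2 shDDX18#3. Calls for shDDX18#1 went from 4946 to 2126 without the block, 2810 with no trend, 2841 with DESeq2 and as few as 2428 with 1 library left out. For shDDX18#3 they went from 1891 to 18, 227, 1191 and 23 in the same order. Between the lines they went from 963 to 36 without the block and 184 with no trend, and from 95 to 2154 with 1 library left out. Between the hairpins they went from 0 to 18 with quantile scaling, 43 with a robust prior and up to 817 without a shLuc library. Directions turned where no call stood. HMGA1 between the lines, -0.01 with all libraries, was 0.12, 0.011 and 0.33 by library total, upper quartile and quantile scaling, and IGF2BP2 in the interaction fit was 0.033 by library total. Leaving out 1 library moved HMGA1 between the lines from -0.093 to 0.058 and IGF2BP3 from -0.17 to 0.19. Between the hairpins it moved LIN28A from -0.15 to 0.34 and HMGA2 from -0.035 to 0.27. In the interaction fit it moved IGF2BP2 from -0.19 to 0.097, LIN28B from -0.072 to 0.84 and HMGA1 from -0.10 to 0.498. Among other named genes, tried after the data were seen, it moved WDR82 from -0.47 to 0.004, H19 from -0.090 to 1.99 and BTRC from -0.061 to 0.48 in the knockdown comparison. No interaction value exists without a shLuc library or without the block.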

Other observations

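The 3′ UTR matches were also set against the knockdown values of all genes. Of 13891 tested genes with an annotated 3′ UTR, 12504 had no let-7 match, 1227 had 1, 130 had 2 and 30 had 3 or more. Their median log2 fold changes were -0.01, 0.01, 0.03 and 0.04, and the shares that fell were 7.34%, 6.76%, 6.15% and 6.67%. The 30 genes include LIN28B, TRIM71, HMGA2 and IGF2BP1, and 3 of the 30 rose and 2 fell. The 2 that fell were LIN28B and TRIM71, and HMGA2 was 1 of the 3 that rose. The share that fell in this class therefore comes only from genes already followed above, and no other gene of the class fell. The other genes of the class that rose are not among the 8. Genes with more matches have longer 3′ UTRs, with a median of 1014 bases for none and 5692 for 3 or more. Among 3′ UTRs of 3000 bases or more, 14.3% of genes with a match and 14.4% of genes with none rose, and 5.61% and 5.50% fell. From 1500 to under 3000 bases 10.9% and 12.9% rose, and 8.27% and 6.73% fell. From 500 to under 1500 bases 12.7% and 10.9% rose, and 6.18% and 7.51% fell. Median log2 fold changes with and without a match were -0.083 and -0.111 under 500 bases. In the longer classes they were -0.075 and -0.016, 0.020 and 0.063, and 0.057 and 0.082, by increasing length. These differences were not tested.

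In the lists around LIN28 and let-7, H19 differed between the lines in every arm, with 131 to 526 CPM in H9 and 0 to 0.322 CPM in HES2, the latter no more than 1 read in any library. IGF2, its neighbour, was present in both.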
